A study of Homo sapiens with 18 samples.

Results

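H1299 cells, a line from a human non-small cell lung carcinoma, lack p53 protein, and 6 of the 18 libraries of this study come from such cells without p53 induction that had been given 1 of 2 AceTAG compounds for 24 h. The comparison described here sets the 3 libraries of cells given AceTAGp300CBP-1 (the p300/CBP compound) against the 3 libraries of cells given AceTAGPCAFGCN5-4 (the PCAF/GCN5 compound), by the labels of treatment and induction. Both groups have the genotype label wt, and their titles name H1299 only, whereas titles of the induced samples add p53-FKBP12F36V. That construct is wild-type p53 carrying an HA tag and FKBP12F36V, a mutant form of the drug-binding protein FKBP12, under doxycycline control. Whether the non-induced cells carried the construct or received doxycycline is not given in the labels, nor is a dose of either compound, nor whether each replicate was a culture of its own. The compounds are therefore compared as they were applied, and p-values measure only the spread between these libraries, which may be technical. The remaining 12 libraries are induced cells given either compound, 3 each and used here only for the same contrast, and the vehicle (DMSO) libraries of both states, which were not analysed here. With no vehicle library in the comparison, a gene that is lower with the p300/CBP compound may equally be described as higher with the PCAF/GCN5 compound.

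AceTAG compounds are heterobifunctional molecules made to bring a lysine acetyltransferase to a protein that carries the FKBP12F36V tag. The paralogs p300 (EP300) and CBP (CREBBP) are large coactivators that acetylate histones, p53 and many other proteins, while PCAF (KAT2B) and GCN5 (KAT2A) are the catalytic subunits of the SAGA and ATAC coactivator complexes. The gene groups that the results turn on belong to the cell division cycle. E2F transcription factors switch on replication and nucleotide synthesis genes as cells enter S phase, a step restrained by the RB family of pocket proteins and, through p21 (CDKN1A), by p53. A later wave of genes serves mitosis.

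The 6 libraries held 19.3 to 26.6 M counts, so that a count of 0 in a library still allows 3 counts, which is 0.113 to 0.156 counts scaled to a library total of 1000000 (CPM), for counting error alone. Genes of the H1299 line such as VIM, at means of 3820 and 3590 CPM with the p300/CBP and the PCAF/GCN5 compound, were well covered. Markers of other cells were mostly near 0. The exceptions were AGER and ITGAM. AGER, on the lung lineage list, was at means of 3.22 and 4.13 CPM with the p300/CBP and the PCAF/GCN5 compound. ITGAM, on the immune list, was at 2.25 and 3.42 CPM. They held most of the summed levels of these lists given below, and neither passed edgeR's test (adjusted p 0.358 and 0.142). Of 11 lung lineage markers 10 lay under 1 CPM, 5 of them at 0 counts in all 6 libraries (the surfactant genes SFTPB and SFTPC among them), and of 13 immune markers 12 lay under 1 CPM, with PTPRC, CD3D and CD3E at 0. All 13 endothelial and fibroblast markers were under 1 CPM. The summed level of each marker list was 3.63 to 3.94 against 3.94 to 5.75 CPM (lung lineage), 2.46 to 3.37 against 3.34 to 4.07 CPM (immune) and 1.16 to 1.71 against 1.5 to 2.1 CPM (endothelial and fibroblast), in p300/CBP against PCAF/GCN5 libraries. On the first principal component of log2 CPM over 12123 genes, which held 37.6% of the variance, the p300/CBP libraries lay at -1, -8.2 and -17.2 and the PCAF/GCN5 libraries at 10.3, 8.5 and 7.5, so the groups did not overlap there, but the p300/CBP libraries were spread wide. PCAF/GCN5 library 1 stood apart on the second component (27.1% of the variance), at -16.2 where the other 5 libraries lay between -6.2 and 6.8.

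Between the compounds, 165 of 15131 genes tested (1.09%) differed at an adjusted p below 0.05 in edgeR's quasi-likelihood test with Benjamini-Hochberg adjustment. The split was uneven, with 141 genes lower (0.932% of those tested) and 24 genes higher (0.159%) with the p300/CBP compound than with the PCAF/GCN5 compound, while the median log2 fold change of all genes was 0.0009. Differences were small. The genes that were lower had log2 fold changes of -1.04 to -0.27 with a median of -0.42, a 1.34-fold lower level, and those that were higher ran from 0.27 to 0.7 with a median of 0.35, which is 1.27-fold. Past 1.5-fold were 20 genes and past 2-fold 1 gene, and 0 genes passed when edgeR's glmTreat tested against a 1.2-fold change. In that test 467 genes had an unadjusted p below 0.05. Tested against no change by edgeR, 927 genes were higher and 1327 lower of 15131 at an unadjusted p below 0.05. DESeq2, also against no change, called 422 of 10296 genes tested, 109 higher and 313 lower. Counts of list members below by these measures stand beside these counts of all genes. In all 165 called genes the 3 libraries of one compound lay wholly above or below the 3 of the other in CPM, as they did for 20.9% of all genes tested. Of the 141 genes that were lower, 138 are protein-coding, and 42 belong to lists of S phase, mitosis or Fanconi anemia and homologous recombination genes. These lists held 38, 37 and 31 of the 15131 genes tested. The last list was chosen after the values were seen, so its share of the 42 describes these data only.

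**Figure D1:**
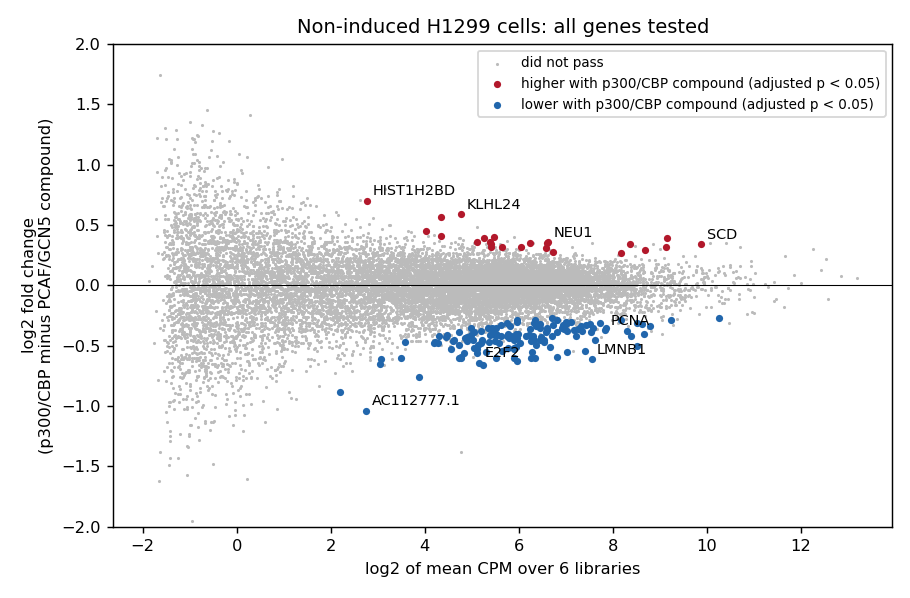
Log2 fold change (p300/CBP minus PCAF/GCN5 compound, y axis) against the log2 of mean CPM over the 6 libraries (x axis) for 15131 genes in non-induced cells, 1 point per gene, with 1 gene beyond the y axis. The 24 genes that were higher (red) and the 141 that were lower (blue) with the p300/CBP compound lie close to the grey band of genes that did not pass.

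The number of genes past the test rested on single libraries. It fell to 1 gene (LMNB1) without p300/CBP library 2, and likewise to 1 gene (LMNB1) without PCAF/GCN5 library 2. Without p300/CBP library 3 it was 19 and without PCAF/GCN5 library 3 it was 47, whereas without library 1 it was 310 for the p300/CBP compound and 287 for the PCAF/GCN5 compound. At an unadjusted p below 0.05 the counts were less far apart, at 2254 genes with all 6 libraries and 1458 to 2423 with 1 library left out. Every gene named below as higher or lower kept its direction in each of these fits, and all but LMNB1 missed the threshold in at least 2 of the 6.

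**Figure D2:**
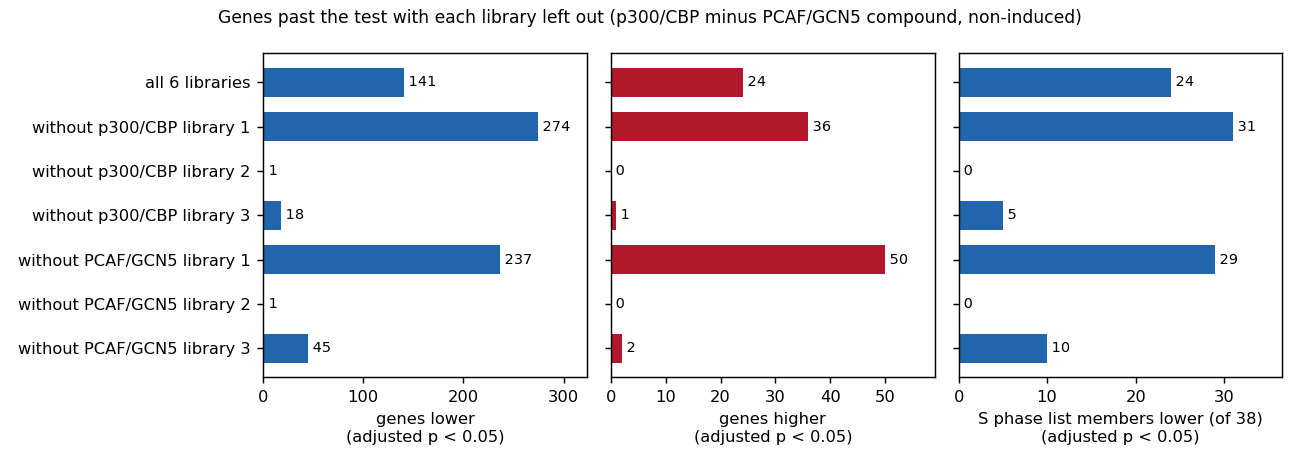
Number of genes lower (left), genes higher (middle) and S phase list members lower (right) with the p300/CBP than with the PCAF/GCN5 compound at an adjusted p below 0.05, with all 6 libraries and with each library left out. Bars fall to 1, 0 and 0 without library 2 of either compound and reach 274, 50 and 31 at most.

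LMNB1, the gene of lamin B1, a filament protein of the nuclear lamina, had the smallest p of all genes. It stood at 154, 152 and 136 CPM with the p300/CBP compound, against 237, 222 and 218 CPM with the PCAF/GCN5 compound. All 3 p300/CBP libraries lay well below all 3 PCAF/GCN5 libraries. LMNB1 had a log2 fold change of -0.61 ± 0.07 (SE, as for every log2 fold change here; 95% interval -0.76 to -0.47; adjusted p 0.00286, edgeR quasi-likelihood), and its log2 fold change ran from -0.66 to -0.55 over 12 other ways of fitting. HMGB2, a chromatin protein of proliferating cells, was at 133, 127 and 120 CPM with the p300/CBP compound and at 160, 168 and 162 CPM with the PCAF/GCN5 compound, and it was lower by a log2 fold change of -0.37 ± 0.07 (adjusted p 0.0186). These were the 2 called members of 7 lamin and HMGB genes, a list chosen after the values were seen, beside 0.932% of all genes lower. The list's median log2 fold change was -0.25. Lamin A (LMNA), at 1070 against 1090 CPM, had a log2 fold change of -0.02 ± 0.08, and lamin B2 (LMNB2), at 473 against 580 CPM, one of -0.29 ± 0.11 that did not pass (adjusted p 0.219). The RefSeq promoter window of LMNB1, 250 bases before to 50 after the gene's start, is shown because the gene carried the firmest difference. It lies on the plus strand at chr5:126776373-126776672 of GRCh38.p14 and held none of the motifs searched on both strands. These were the TATA box as TATAAA, the CCAAT box, the GC box as GGGCGG, the AP-1 site as TGANTCA, the CRE as TGACGTCA, the E-box as CACGTG, the p53 decamer and the E2F site as TTTNGCGC. Only this window was searched for LMNB1, so any other start of the gene was not covered.
LMNB1: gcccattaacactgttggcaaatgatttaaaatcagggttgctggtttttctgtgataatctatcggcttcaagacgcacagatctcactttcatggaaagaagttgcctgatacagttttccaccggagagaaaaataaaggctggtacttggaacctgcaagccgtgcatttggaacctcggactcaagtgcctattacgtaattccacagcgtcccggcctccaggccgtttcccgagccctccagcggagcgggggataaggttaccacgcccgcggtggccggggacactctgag

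Genes of S phase and DNA replication were lower with the p300/CBP compound. Of 38 on the list, all tested, 24 were lower, 0 were higher and 14 did not pass in edgeR's quasi-likelihood test, beside 0.932% of all genes lower. At an unadjusted p below 0.05 the list had 36 members lower and 0 higher, beside 1327 and 927 of all 15131 genes. DESeq2 called 27 lower and 0 higher, beside 313 and 109 of 10296 genes. All 38 log2 fold changes were negative, from -0.65 to -0.12, with a median of -0.45 beside 0.0009 for all genes. In 35 of the 38 the p300/CBP libraries lay wholly below the PCAF/GCN5 libraries, as for 11.0% of all genes. The summed level of the list was 3280 to 4060 CPM with the p300/CBP compound and 4720 to 5190 CPM with the PCAF/GCN5 compound, so the groups did not overlap. The number of members past the test was 0 without p300/CBP library 2, 5 without p300/CBP library 3, 0 without PCAF/GCN5 library 2 and 10 without PCAF/GCN5 library 3, while 38 of 38 stayed negative with a median of -0.54 to -0.39 throughout. In these bulk samples fewer cells in S phase and less RNA of these genes per cell cannot be told apart.

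The E2F factors overlap with that list, since E2F1 is a member of it and was counted there too. E2F1, an activator of replication genes, had 56.4, 49.7 and 40.4 CPM with the p300/CBP compound, against 78.9, 77.2 and 71.7 CPM with the PCAF/GCN5 compound. Its highest p300/CBP library lay below its lowest PCAF/GCN5 library, and its log2 fold change was -0.63 ± 0.10 (95% interval -0.85 to -0.42; adjusted p 0.0125). E2F2, a second activator, had 32.9, 26.9 and 23 CPM with the p300/CBP compound and 39.9, 45.9 and 44 CPM with the PCAF/GCN5 compound, a log2 fold change of -0.64 ± 0.11. E2F7, a repressor in the same family that is itself an E2F and p53 target, was at 21.1 ± 2.76 against 32.1 ± 2.87 CPM (SD, n = 3 each), a log2 fold change of -0.60 ± 0.11. TFDP1, the DNA-binding partner of E2Fs, was lower too, by a log2 fold change of -0.27 ± 0.06. E2F1, E2F2, E2F7 and TFDP1 were the 4 called of 13 E2F and pocket protein genes, beside 0.932% of all genes lower. The list was chosen after the values were seen, and its other 9 members did not pass. Among them E2F8, RBL1, E2F6 and E2F3 still had all p300/CBP libraries below all PCAF/GCN5 libraries. Their log2 fold changes were -0.49 ± 0.12 (adjusted p 0.0525, edgeR), -0.29 ± 0.09, -0.19 ± 0.09 and -0.05 ± 0.06. RB1, at 129 against 124 CPM, RBL2, at 109 against 104 CPM, and E2F4, at 90 against 92.2 CPM, had overlapping groups. The log2 fold changes of these were 0.06 ± 0.06, 0.06 ± 0.07 and -0.03 ± 0.08. TFDP2 and E2F5 overlapped as well, at 0.01 ± 0.07 each.

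Genes of the replicative helicase, its loading and its activation were lower in part. MCM2 to MCM7 encode the helicase ring, and 4 of these 6 were lower. MCM2 was at 165, 139 and 110 CPM with the p300/CBP compound, against 183, 212 and 209 CPM with the PCAF/GCN5 compound. Groups did not overlap, but p300/CBP library 1 came close to PCAF/GCN5 library 1, and the log2 fold change was -0.54 ± 0.12 (adjusted p 0.0367). MCM2 did not pass by DESeq2, with the same log2 fold change. MCM4 had 340, 287 and 275 CPM with the p300/CBP compound and 394, 460 and 425 CPM with the PCAF/GCN5 compound, a log2 fold change of -0.50 ± 0.09. MCM3 and MCM6 had log2 fold changes of -0.45 ± 0.09 and -0.32 ± 0.07, whereas MCM5 (-0.54 ± 0.13) and MCM7 (-0.40 ± 0.09) fell just outside the threshold, both at an adjusted p of 0.0503. CDC6, which loads the ring onto origins, was at 51.3, 45.3 and 37.3 CPM against 58.5, 70 and 63.7 CPM in p300/CBP against PCAF/GCN5 libraries, a log2 fold change of -0.52 ± 0.11, and its partner CDT1 had -0.39 ± 0.12 without passing. Of the factors that activate the helicase, MCM10 (-0.60 ± 0.10), CDC45 (-0.52 ± 0.09), GINS1 (-0.59 ± 0.10) and GINS2 (-0.51 ± 0.10) were lower on the log2 scale.

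At the fork, PCNA, the sliding clamp and also a p53 target, had 205, 198 and 197 CPM with the p300/CBP compound, against 254, 272 and 249 CPM with the PCAF/GCN5 compound. The p300/CBP libraries agreed closely and lay below all 3 others, with a log2 fold change of -0.37 ± 0.06 (95% interval -0.50 to -0.24; adjusted p 0.0162). Clamp loader genes RFC2, RFC3, RFC4 and RFC5 were lower by log2 fold changes of -0.35 to -0.56, and the flap nuclease FEN1, at 64.5 ± 9.56 against 98.2 ± 6.77 CPM (SD, n = 3 each), by -0.60 ± 0.10. DNA polymerase alpha, which starts new strands, had both POLA1 (-0.45 ± 0.07) and POLA2 (-0.65 ± 0.14) lower on the log2 scale. CHAF1A and CHAF1B, the histone chaperone subunits that assemble nucleosomes behind the fork, had log2 fold changes of -0.55 ± 0.11 and -0.48 ± 0.08. UHRF1, which brings the maintenance methyltransferase to new DNA, was at 89.2 ± 16.8 against 134 ± 11.7 CPM (SD, n = 3 each), a log2 fold change of -0.59 ± 0.11. DNA ligase LIG1 was the member with the smallest difference, at -0.12 ± 0.09.

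Enzymes that make deoxynucleotides followed the same direction. RRM2, the regulated subunit of ribonucleotide reductase, had 374, 358 and 314 CPM with the p300/CBP compound, against 410, 501 and 465 CPM with the PCAF/GCN5 compound. Its groups did not overlap, its lowest PCAF/GCN5 library being library 1, and the log2 fold change was -0.40 ± 0.09 (adjusted p 0.0441). RRM1, the other subunit, was lower by a log2 fold change of -0.31 ± 0.06. TYMS, thymidylate synthase, had 313, 278 and 271 CPM with the p300/CBP compound and 367, 406 and 382 CPM with the PCAF/GCN5 compound, a log2 fold change of -0.42 ± 0.07. TK1 (-0.26 ± 0.08) did not pass.

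**Figure D3:**
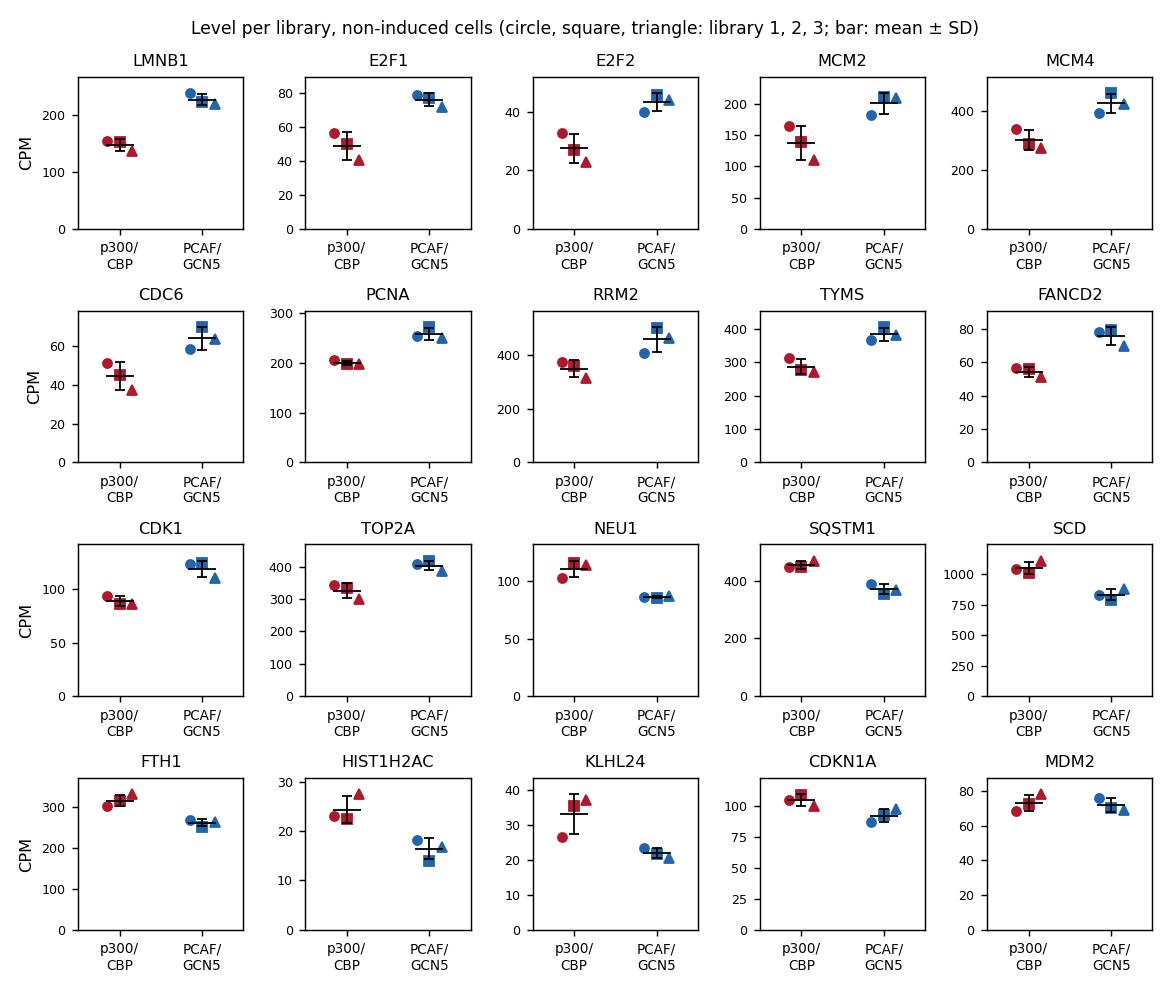
CPM of 20 genes in each of the 6 non-induced libraries, p300/CBP compound left (red) and PCAF/GCN5 compound right (blue), with mean ± SD and each y axis starting at 0. From LMNB1 to TOP2A all p300/CBP libraries lie below the PCAF/GCN5 libraries, from NEU1 to KLHL24 above them, and MDM2 overlaps.

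Because these genes moved together, promoter windows of 3 of them are shown, namely the called S phase members of smallest p whose window held TTTNGCGC, letters that E2F factors are known to bind. The motif was chosen after the values were seen. It was present in 13 of 33 S phase list promoters (39.4%), in 21 of 113 promoters of genes that were lower (18.6%) and in 0 of 19 of genes that were higher, beside 3.01% of 10506 promoters of tested genes and 1.83% of 27305 promoters in all, a description of these letters only. CCAAT was present in 59.3% of the promoters of genes that were lower and in 63.2% of those that were higher, beside 36.7% of tested genes, so it did not part the directions. GGGCGG was in 70.8% and 78.9% of them, beside 71.2%, and the p53 decamer in 6.19% and 10.5%, beside 5.11%. In the windows below, from RefSeq on GRCh38.p14 and written 5′ to 3′ on the gene's strand, capitals mark every match on either strand to the motifs listed above for LMNB1. E2F1 lies at chr20:33686336-33686635 on the minus strand, POLA1 at chrX:24693668-24693967 and GINS1 at chr20:25407423-25407722, both on the plus strand. Each held 1 match to TTTNGCGC, and E2F1 also held 3 matches to the CCAAT box and 6 to the GC box. Windows of LMNB1, CDCA7, NEU1 and KLHL24 were chosen by smallest p in each direction, and each held 0 matches to TTTNGCGC. CDCA7 held 1 match to the GC box, and KLHL24 1 each to the CCAAT box, the GC box and the AP-1 site. The windows of CDCA7 and KLHL24 are not shown.
E2F1: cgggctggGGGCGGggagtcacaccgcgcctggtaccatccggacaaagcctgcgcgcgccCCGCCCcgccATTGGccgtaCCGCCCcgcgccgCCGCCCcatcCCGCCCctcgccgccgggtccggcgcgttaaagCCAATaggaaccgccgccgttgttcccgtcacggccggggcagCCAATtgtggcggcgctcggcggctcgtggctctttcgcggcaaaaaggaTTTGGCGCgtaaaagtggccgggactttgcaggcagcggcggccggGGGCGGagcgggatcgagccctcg
POLA1: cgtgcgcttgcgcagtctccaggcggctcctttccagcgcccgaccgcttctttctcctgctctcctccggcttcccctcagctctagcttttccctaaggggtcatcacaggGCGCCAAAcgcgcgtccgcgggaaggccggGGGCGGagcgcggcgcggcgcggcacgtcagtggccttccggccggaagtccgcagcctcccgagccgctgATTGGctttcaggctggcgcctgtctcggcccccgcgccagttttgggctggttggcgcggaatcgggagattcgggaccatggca
GINS1: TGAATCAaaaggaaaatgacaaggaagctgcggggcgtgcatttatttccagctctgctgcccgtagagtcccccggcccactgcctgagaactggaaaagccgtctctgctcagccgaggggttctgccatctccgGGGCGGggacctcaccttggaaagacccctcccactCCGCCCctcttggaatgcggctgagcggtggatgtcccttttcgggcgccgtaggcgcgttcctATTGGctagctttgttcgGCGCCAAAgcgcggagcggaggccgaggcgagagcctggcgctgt

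Genes of the Fanconi anemia pathway, which repairs crosslinks between DNA strands, and of homologous recombination were lower in part. Of 31 such genes, a list chosen after the values were seen, 10 were lower and 0 higher, beside 0.932% of all genes lower, with all 31 negative and a median log2 fold change of -0.34, and DESeq2 called 15 lower and 0 higher. At an unadjusted p below 0.05 there were 24 lower and 0 higher. Of all genes 1327 of 15131 were lower at that p, and 313 of 10296 by DESeq2. FANCG, a subunit of the core complex, had 38.4, 37.5 and 38 CPM with the p300/CBP compound, against 52.9, 52.2 and 51.7 CPM with the PCAF/GCN5 compound; the SD was 0.451 and 0.632 CPM and the groups did not overlap. Its log2 fold change was -0.46 ± 0.07 (adjusted p 0.0125). FANCD2, the central protein that the core complex ubiquitinates, had 56.4, 55.8 and 51 CPM with the p300/CBP compound and 78.2, 79.5 and 69.6 CPM with the PCAF/GCN5 compound, a log2 fold change of -0.48 ± 0.08. FANCA (-0.49 ± 0.08), FANCI (-0.35 ± 0.07) and USP1 (-0.42 ± 0.07), the enzyme that removes ubiquitin from FANCD2 and PCNA, were lower as well on the log2 scale. Among recombination genes, PSMC3IP (-0.76 ± 0.12), RAD54L (-0.60 ± 0.10), XRCC3 (-0.55 ± 0.10), XRCC2 (-0.46 ± 0.10) and RAD51AP1 (-0.42 ± 0.08) passed. BRCA1 (-0.34 ± 0.08) and BRCA2 (-0.25 ± 0.16) did not. Members past the test numbered 0 without library 2 of either compound, 4 without p300/CBP library 3 and 5 without PCAF/GCN5 library 3.

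Mitotic genes had smaller differences. Of 38 on the list 37 were tested, and 8 were lower and 0 higher in edgeR's test, beside 0.932% of all genes lower. DESeq2 called 20 lower and 0 higher, beside 313 and 109 of 10296 genes. At an unadjusted p below 0.05 there were 31 lower and 0 higher, beside 1327 and 927 of 15131 genes. All 37 log2 fold changes were negative, from -0.45 to -0.06, with a median of -0.25, and in 27 the p300/CBP libraries lay wholly below, as for 11.0% of all genes. The summed level was 4960 to 5670 CPM with the p300/CBP compound and 6010 to 6770 CPM with the PCAF/GCN5 compound. CDK1, the kinase that drives entry into mitosis, had 93.8, 86.4 and 85.8 CPM with the p300/CBP compound, against 123, 124 and 110 CPM with the PCAF/GCN5 compound, without overlap and with a log2 fold change of -0.42 ± 0.07 (adjusted p 0.0132). TOP2A, the topoisomerase that untangles chromosomes, had 344, 333 and 300 CPM with the p300/CBP compound and 408, 417 and 388 CPM with the PCAF/GCN5 compound, a log2 fold change of -0.31 ± 0.07. AURKB (-0.45 ± 0.08) of the chromosome passenger complex, NDC80 (-0.35 ± 0.06) of the kinetochore and UBE2C (-0.42 ± 0.08), which serves the anaphase-promoting complex, were lower on the log2 scale. So were the cytokinesis genes KIF23 (-0.36 ± 0.07), RACGAP1 (-0.34 ± 0.06) and ECT2 (-0.31 ± 0.06). CCNB1 (-0.17 ± 0.07), PLK1 (-0.18 ± 0.08) and MKI67 (-0.20 ± 0.13) did not pass. The count was 0 without library 2 of either compound or without p300/CBP library 3, 3 without PCAF/GCN5 library 3, and 15 and 22 without library 1 of the p300/CBP and of the PCAF/GCN5 compound.

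**Figure D4:**
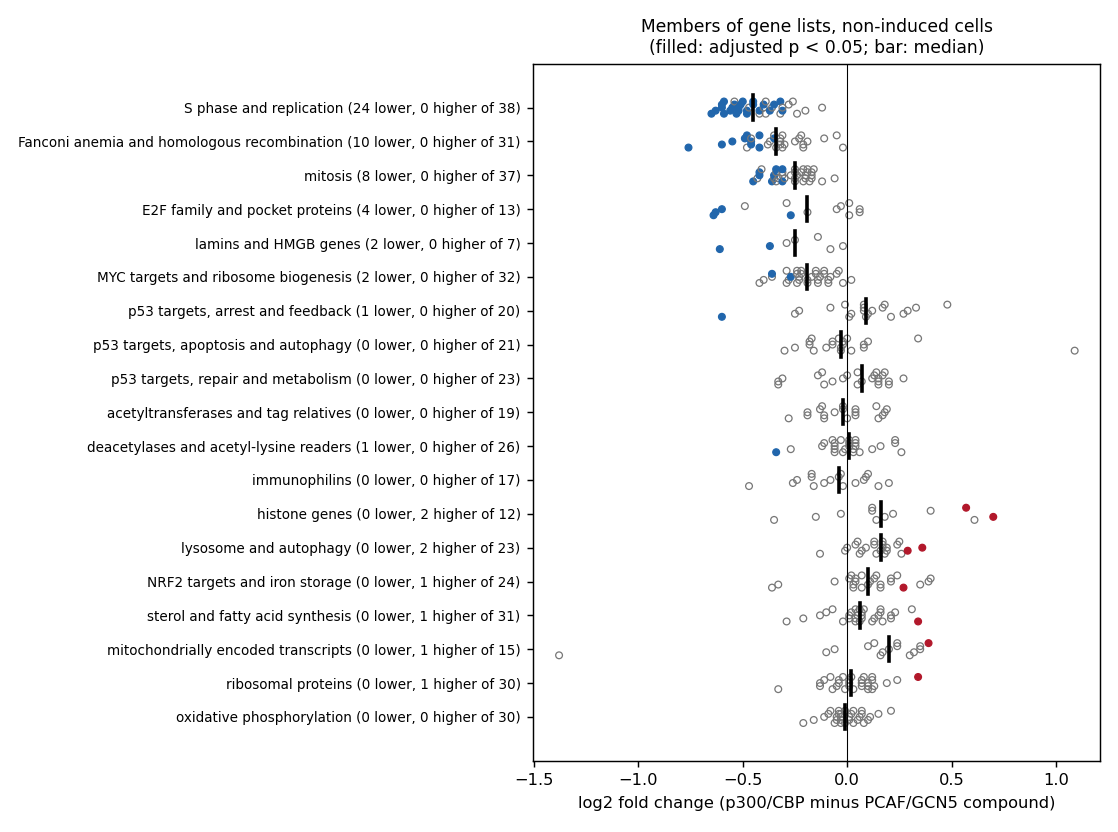
Log2 fold change (p300/CBP minus PCAF/GCN5 compound, non-induced cells) of each tested member of 19 gene lists, 1 point per gene, filled where the adjusted p is below 0.05, with a bar at the list's median. Medians run from -0.45 for S phase to 0.2 for mitochondrially encoded transcripts, which without PCAF/GCN5 library 1 was at 0.

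Several other genes that were lower belong to none of these lists. PKMYT1, a kinase that restrains CDK1, was at 29.3 ± 3.98 against 46.4 ± 2.92 CPM (SD, n = 3 each), a log2 fold change of -0.66 ± 0.10. SAP18, a subunit of Sin3 deacetylase complexes, had 70.2, 53.3 and 58.7 CPM with the p300/CBP compound, against 86.8, 94.3 and 96.2 CPM with the PCAF/GCN5 compound, and a log2 fold change of -0.60 ± 0.09. CDCA7, whose protein recruits a chromatin remodeller to DNA (-0.52 ± 0.07), TCF19 (-0.55 ± 0.08), the zinc finger gene ZNF367 (-0.60 ± 0.09) and PDSS1, an enzyme of coenzyme Q synthesis (-0.61 ± 0.13), also passed on the log2 scale. AC112777.1, a processed pseudogene on chromosome 12 whose reads may be shared with its parent gene, so that its count is uncertain, showed the widest difference among called genes, with 4.77, 4.36 and 4 CPM with the p300/CBP compound, against 11.9, 7.63 and 7.68 CPM with the PCAF/GCN5 compound (log2 fold change -1.04 ± 0.18). RRP7BP, at 3.25 against 5.96 CPM (log2 fold change -0.88 ± 0.19), is a pseudogene that may share reads with RRP7A, so its count is uncertain. NME1, a nucleoside diphosphate kinase whose exons are shared by a read-through transcript, had 65.7, 64 and 62.8 CPM with the p300/CBP compound and 98.3, 86.3 and 79.8 CPM with the PCAF/GCN5 compound, a log2 fold change of -0.46 ± 0.08.

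Of 32 MYC target and ribosome biogenesis genes 2 were lower and 0 higher by edgeR, beside 0.932% of all genes lower. DESeq2 called 8 lower and 0 higher, beside 313 and 109 of 10296 genes. At an unadjusted p below 0.05 there were 19 lower and 0 higher, beside 1327 and 927 of 15131 genes. The list's median log2 fold change was -0.19, and 31 of 32 were negative. The 2 were DKC1, a subunit of box H/ACA ribonucleoproteins (133 ± 7.99 against 171 ± 10.1 CPM, log2 fold change -0.36 ± 0.07), and the mitochondrial chaperonin HSPD1 (1110 ± 11.1 against 1340 ± 71 CPM, log2 fold change -0.27 ± 0.06), which has processed pseudogene copies. MYC itself, at 133 against 143 CPM, had -0.11 ± 0.11. Single members of 5 other lists were lower on the log2 scale, namely the stress factor ATF4 (-0.35 ± 0.07), SDF2L1 of the endoplasmic reticulum (-0.46 ± 0.10), hexokinase HK2 (-0.34 ± 0.08), the immediate early gene IER5 (-0.46 ± 0.11) and ATAD2 (-0.34 ± 0.08), a bromodomain protein that is also an E2F target. By edgeR 0 genes were called in the lists of oxidative phosphorylation, bromodomain inhibitor response, NF-kB, interferon, LXR and PPAR, epithelial, mesenchymal, MAPK feedback, glucocorticoid and AHR genes, with 0 to 5 higher and 0 to 2 lower per list at an unadjusted p below 0.05, and DESeq2 called 1 interferon gene lower and 1 glucocorticoid target higher. The medians of the ATF4, unfolded protein, hypoxia, immediate early and deacetylase and reader lists lay between -0.04 and 0.02, near that of all genes.

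Genes that were higher with the p300/CBP compound were few and of mixed function. HIST1H2BD, a histone H2B gene whose transcripts can be polyadenylated, had 8.06, 8.16 and 9.13 CPM with the p300/CBP compound, against 5.08, 5.6 and 4.85 CPM with the PCAF/GCN5 compound. All p300/CBP libraries were above all others, with the largest positive log2 fold change among called genes, 0.70 ± 0.13 (95% interval 0.42 to 0.98; adjusted p 0.0201). HIST1H2AC, an H2A gene of the same cluster on chromosome 6, had 23, 22.5 and 27.4 CPM with the p300/CBP compound and 18.2, 14 and 16.8 CPM with the PCAF/GCN5 compound, a log2 fold change of 0.57 ± 0.11. Of 12 tested histone genes these 2 were higher and 0 lower by edgeR, beside 0.159% of all genes higher, and the median of the 12 was 0.16. DESeq2 called 2 higher and 1 lower, beside 109 and 313 of 10296 genes. At an unadjusted p below 0.05 there were 5 higher and 2 lower, beside 927 and 1327 of 15131 genes. Histone genes of one kind are near-identical, so reads may be split among them. KLHL24, a substrate adaptor of a ubiquitin ligase, had 26.4, 35.3 and 37 CPM with the p300/CBP compound, against 23.4, 21.5 and 20.6 CPM with the PCAF/GCN5 compound, and p300/CBP library 1 came nearest to the other group (log2 fold change 0.59 ± 0.11).

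Of 23 lysosome and autophagy genes 2 were higher and 0 lower, beside 0.159% of all genes higher. At an unadjusted p below 0.05 there were 10 higher and 0 lower, beside 927 and 1327 of 15131 genes. DESeq2 called 3 higher and 0 lower, beside 109 and 313 of 10296 genes. Among the 23, 21 were positive, the median was 0.16, and in 13 the p300/CBP libraries lay wholly above, as for 9.82% of all genes. NEU1, the lysosomal sialidase, had 103, 116 and 114 CPM with the p300/CBP compound, against 86.3, 85.9 and 87.3 CPM with the PCAF/GCN5 compound. The groups were apart and the PCAF/GCN5 libraries close together, with a log2 fold change of 0.36 ± 0.07 (95% interval 0.22 to 0.50; adjusted p 0.0186). SQSTM1, the autophagy receptor p62, had 447, 447 and 469 CPM with the p300/CBP compound and 388, 355 and 369 CPM with the PCAF/GCN5 compound, a log2 fold change of 0.29 ± 0.06. LAMP2 (0.25 ± 0.07, adjusted p 0.0832) and GABARAPL1 (0.24 ± 0.07, adjusted p 0.120) missed the threshold. Neither call was kept without library 2 or 3 of either compound. The promoter window of NEU1, the called higher gene of smallest p, lies at chr6:31862772-31863071 of GRCh38.p14 on the minus strand, and held 2 matches to the CCAAT box, 1 to the GC box, 1 to the E-box, which lysosomal gene regulators are known to bind, and 1 to the p53 decamer, all in capitals. CACGTG was in 15.8% of 19 promoters of genes that were higher, beside 10.3% of those of tested genes.
NEU1: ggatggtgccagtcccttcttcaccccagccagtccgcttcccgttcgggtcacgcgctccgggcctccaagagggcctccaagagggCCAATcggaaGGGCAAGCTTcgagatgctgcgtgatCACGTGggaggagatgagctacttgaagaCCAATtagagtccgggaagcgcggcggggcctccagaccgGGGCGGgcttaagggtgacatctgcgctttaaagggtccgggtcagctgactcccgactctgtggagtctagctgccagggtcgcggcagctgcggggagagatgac

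In lipid and iron metabolism, SCD, the desaturase that makes monounsaturated fatty acids, had 1040, 1010 and 1110 CPM with the p300/CBP compound, against 828, 786 and 877 CPM with the PCAF/GCN5 compound. Its groups did not overlap, and its log2 fold change was 0.34 ± 0.07 (adjusted p 0.0233). SCD was the only call among 31 sterol and fatty acid genes by edgeR, beside 0.159% of all genes higher. Of these 31 genes 6 were negative, and their median was 0.06. At an unadjusted p below 0.05 the list had 7 higher and 1 lower, beside 927 and 1327 of 15131 genes. FTH1, the ferritin heavy chain, had 303, 316 and 331 CPM with the p300/CBP compound and 269, 252 and 264 CPM with the PCAF/GCN5 compound, a log2 fold change of 0.27 ± 0.06. It was the only call by edgeR among 24 NRF2 and iron genes, of which 3 were negative (median 0.10). At an unadjusted p below 0.05 that list had 5 higher and 0 lower. RPLP2, a stalk protein of the ribosome, had 366, 366 and 375 CPM with the p300/CBP compound, against 297, 309 and 271 CPM with the PCAF/GCN5 compound, a log2 fold change of 0.34 ± 0.06, while 30 ribosomal protein genes had a median of 0.02. FTH1 and RPLP2 have processed pseudogene copies elsewhere in the genome, with which reads may be shared. ID2 (0.35 ± 0.08), an inhibitor of basic helix-loop-helix factors, RHOB (0.40 ± 0.09), a small GTPase, and MXD4 (0.35 ± 0.07), a partner of MAX that opposes MYC, were higher on the log2 scale, as were ALDH3B1 (0.39 ± 0.08), CCDC92 (0.41 ± 0.09), BCLAF3 (0.45 ± 0.10) and SIDT2 (0.36 ± 0.08). PCDHGA3 (0.36 ± 0.07) shares exons with the other genes of the protocadherin gamma cluster, so its count is uncertain.

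Among 15 mitochondrially encoded transcripts the small ribosomal RNA MT-RNR1 was the only call by edgeR, beside 0.159% of all genes higher. It had 694, 612 and 616 CPM with the p300/CBP compound, against 462, 538 and 463 CPM with the PCAF/GCN5 compound (log2 fold change 0.39 ± 0.08). At an unadjusted p below 0.05 the list had 2 higher and 1 lower, beside 927 and 1327 of 15131 genes. The mitochondrial share of all counts was 2.31%, 2.19% and 2.13% in the p300/CBP libraries and 1.31%, 2.26% and 2.11% in the PCAF/GCN5 libraries, so PCAF/GCN5 library 1 alone was low. Without that library MT-RNR1 had a log2 fold change of 0.34 and passed (adjusted p 0.0344), whereas it missed the threshold when any 1 of the other 5 libraries was left out instead, with adjusted p up to 0.155. Over all alternatives its adjusted p ran from 3.53e-06 to 1.0. DESeq2 called 2 of the 15 higher and 0 lower, and the fit of all 4 compound groups called 0 higher and 1 lower, with MT-RNR1 no longer past the threshold. The list's median log2 fold change of 0.2, with 3 of 15 negative, rested on PCAF/GCN5 library 1, since without it the median was 0 and 8 of 15 were negative, with 2 called higher and 2 lower. MT-ATP8 went the other way without passing, at 23.7, 9.13 and 11.7 CPM with the p300/CBP compound and 19.5, 55.2 and 43.1 CPM with the PCAF/GCN5 compound (log2 fold change -1.38 ± 0.32, adjusted p 0.0523), and its groups overlapped.

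None of the 4 genes of the enzymes that the compounds are named for passed the test. EP300 had 104, 105 and 106 CPM with the p300/CBP compound, against 87.8, 94.9 and 96.2 CPM with the PCAF/GCN5 compound, a log2 fold change of 0.17 with a 95% interval of 0.03 to 0.31 (adjusted p 0.227). CREBBP, at 103 ± 1.49 against 93.4 ± 2.68 CPM (SD, n = 3 each), had 0.14 on the log2 scale with an interval of 0.01 to 0.28 (adjusted p 0.302). KAT2B was at 92.4 ± 11 against 81.5 ± 0.519 CPM, with an interval of 0.02 to 0.34, and KAT2A at 39.7 ± 2.8 against 43.3 ± 2.55 CPM, with an interval of -0.30 to 0.05 on the log2 scale. Missing the threshold does not show equal levels. FKBP1A, the gene of FKBP12 itself, was at 212 ± 7.71 against 206 ± 24.2 CPM, and its log2 fold change of 0.04 had an interval of -0.13 to 0.21. Of 19 acetyltransferase and complex genes 0 were called by edgeR, DESeq2 or the fit of all 4 compound groups, with 4 higher and 3 lower at an unadjusted p below 0.05. Of 17 immunophilins 0 were called by edgeR and 1 in each direction by DESeq2, with 1 higher and 3 lower at an unadjusted p below 0.05. Of all 15131 genes 1.09% were called by edgeR, and 927 were higher and 1327 lower at that unadjusted p. DESeq2 called 422 of 10296 genes.

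On the 3 lists of p53 targets E2F7 alone passed in non-induced cells by edgeR. CDKN1A, which encodes p21, had 105, 109 and 100 CPM with the p300/CBP compound, against 87, 92.6 and 97.9 CPM with the PCAF/GCN5 compound. The groups did not overlap, yet the log2 fold change of 0.18 (95% interval 0.03 to 0.33) did not pass (adjusted p 0.254). MDM2, the ubiquitin ligase that limits p53, had 68.8, 72.5 and 78.1 CPM with the p300/CBP compound and 76.3, 70.1 and 69.3 CPM with the PCAF/GCN5 compound, overlapping groups with a log2 fold change of 0.02 (interval -0.12 to 0.17). Of 20 arrest and feedback targets 1 was lower (E2F7) and 0 higher by edgeR, beside 0.932% of all genes lower and 0.159% higher. At an unadjusted p below 0.05 there were 6 higher and 2 lower, beside 927 and 1327 of 15131 genes. DESeq2 called 2 higher and 1 lower, beside 109 and 313 of 10296 genes. Of 21 apoptosis targets and 23 repair and metabolism targets 0 were called. At an unadjusted p below 0.05 these had 2 higher and 3 lower, and 2 higher and 2 lower, and DESeq2 called 1 apoptosis target higher and no repair target. The medians of the 3 lists were 0.09, -0.03 and 0.07.

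The same contrast in induced cells shares no library with the one above. There 617 of 14983 genes (4.12%) were called, 280 higher (1.87%) and 337 lower (2.25%) with the p300/CBP than with the PCAF/GCN5 compound. Of the 141 genes lower in non-induced cells, 135 were also negative in induced cells, 69 were called lower (48.9% of the 141 and 20.5% of the 337) and 2 higher there, and their median log2 fold change was -0.29. Of the 24 genes higher in non-induced cells, 20 were positive in induced cells, 3 were called higher and 1 lower, with a median of 0.10. On the S phase list 18 of 38 were lower and 1 higher in induced cells (median -0.32), on the mitosis list 34 of 37 were lower (median -0.40), and on the Fanconi list 10 of 31 were lower (median -0.28). In induced cells LMNB1 was at 76.9, 75.5 and 76.6 CPM with the p300/CBP compound and at 106, 115 and 108 CPM with the PCAF/GCN5 compound, a log2 fold change of -0.50 ± 0.05, and NEU1 had 0.34 ± 0.05. The p53 lists of arrest, apoptosis and repair targets held 8 of 22, 10 of 20 and 12 of 23 members higher in induced cells.

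Whether the difference between the compounds was itself different in the 2 states was tested as an interaction over the 12 libraries, given as the log2 fold change in non-induced minus that in induced cells. It was called for 51 of 15656 genes (0.326%), 11 above 0 (0.0703%) and 40 below 0 (0.255%), and for 5 of the 165 genes called in non-induced cells. On the S phase list PCNA alone was called, at -0.52 ± 0.08 (95% interval -0.68 to -0.36; adjusted p 0.00151), and of 37 mitosis and 31 Fanconi genes 0 were called. In induced cells PCNA had 322, 318 and 307 CPM with the p300/CBP compound, against 279, 297 and 290 CPM with the PCAF/GCN5 compound, a log2 fold change of 0.15 ± 0.05 that did not pass. NME1 (-0.75 ± 0.10) and IER5 (-0.87 ± 0.15) were lower with the p300/CBP compound in non-induced and higher in induced cells, where their log2 fold changes were 0.29 ± 0.06 and 0.41 ± 0.09. RPLP2 (interaction 0.54 ± 0.07) was higher in non-induced and lower in induced cells (-0.20 ± 0.05), and SCD (interaction 0.49 ± 0.09) had -0.14 ± 0.06 in induced cells without passing. CDKN1A had an interaction of -1.36 ± 0.09 (interval -1.55 to -1.18; adjusted p 1.24e-08), since in induced cells it stood at 2390 ± 59.6 CPM with the p300/CBP compound and 831 ± 26.7 CPM with the PCAF/GCN5 compound. EP300, CREBBP, KAT2A, KAT2B, FKBP1A and MDM2 had interactions of 0.02 to 0.15 that did not pass.

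**Figure D5:**
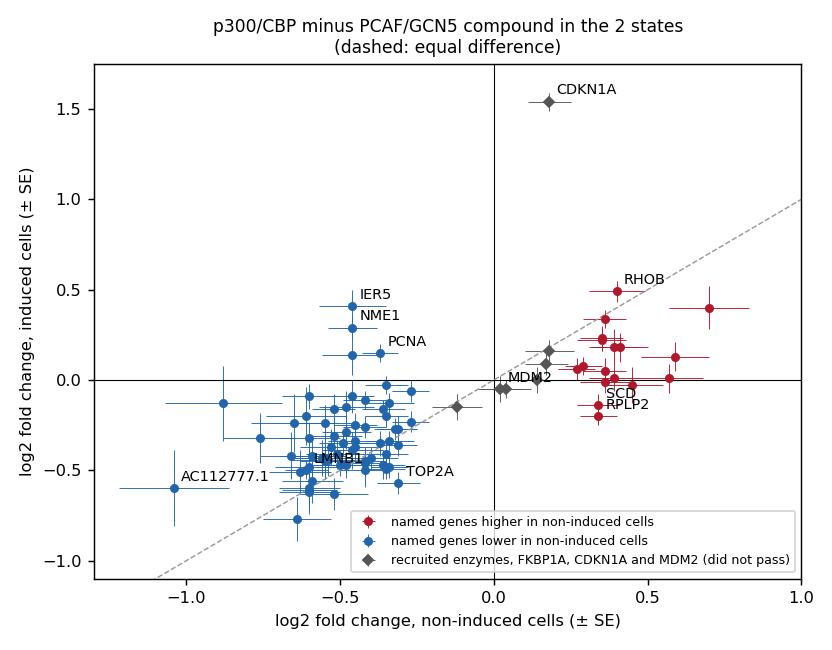
Log2 fold change of the named genes (p300/CBP minus PCAF/GCN5 compound) in non-induced cells (x axis) and in induced cells (y axis), with standard errors, and a dashed line of equal difference. Most genes lower in non-induced cells (blue) are also below 0 in induced cells, while CDKN1A stands at 0.18 and 1.54.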

How the data were processed

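RNA was measured by sequencing of total RNA libraries from a directional kit, per the labels' protocols. The submitters' processing notes name StringTie and DESeq2, with no version. The aligner, genome build, annotation, counter and use of strand are not given in the sources used here. Raw counts per gene were deposited for each library in the authors' tables, per the file headers, and only these counts were used. Tables were joined by gene identifier, and library columns were matched to samples through the names in the labels. The line of ANK2 is broken in 1 table, so 4 lines there were left out and ANK2 was dropped, which left 60622 genes, of which 60294 identifiers matched current names.

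Genes passing filterByExpr were tested with edgeR 4.0.16 (quasi-likelihood F test, 2-sided, TMM scaling) in R 4.3.3, with Benjamini-Hochberg adjustment over all genes tested and a threshold of 0.05. Each compound contrast was fitted on its own 6 libraries and the interaction on 12. Standard errors are the log2 fold change over the root of F, and 95% intervals use the fit's degrees of freedom. CPM were made by dividing counts by the library total and multiplying by 1000000, given as mean ± SD. DESeq2 1.42.0, other scaling, no filter, glmTreat at 1.2-fold, a replicate block, a fit of all 4 compound groups and leaving out each library were alternatives. The scripts were tested on simulated data.

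Named genes were those of non-overlapping groups and a mean of at least 1 CPM among the 12 largest log2 fold changes or 6 smallest p in each direction, called members of the lists, up to 3 interaction genes on each side, and 8 genes of the recruited enzymes, the tag and p53. LMNA, LMNB2, MT-ATP8, LIG1 and other list members that did not pass, and TP53I3, were named after their values were seen. A few named genes are not reported here. The members and lists were chosen with earlier results of these data known, and 3 lists and 1 motif were added after the values were seen. Promoter windows come from RefSeq (GRCh38.p14), with 1 window for each symbol. Matching by symbol found 113 of the 141 genes that were lower and 19 of the 24 that were higher.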

Additional observations from a re-analysis of the deposited data

Results flagged for a closer look

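The difference between the compounds was itself different in non-induced and induced cells for 51 genes by edgeR's interaction test (quasi-likelihood, Benjamini-Hochberg over 15656 genes). Of these, 7 are given here, namely those also called in non-induced cells, CDKN1A and TP53I3. The interaction, non-induced minus induced on the log2 scale, was -0.75 for NME1 (adjusted p 0.000368), -0.52 for PCNA (0.00151), -0.87 for IER5 (0.00546), 0.54 for RPLP2 (0.000576) and 0.49 for SCD (0.0104). For CDKN1A it was -1.36 and for TP53I3 -1.63, both with an adjusted p of 1.24e-08. TP53I3, a p53 target chosen after its values were seen, was at 29 ± 1.95 CPM with the p300/CBP compound and 22.8 ± 2.54 CPM with the PCAF/GCN5 compound in non-induced cells, a log2 fold change of 0.34 ± 0.09 that did not pass (adjusted p 0.0917), and at 633 ± 2.33 against 164 ± 12.7 CPM in induced cells (SD, n = 3 each), a log2 fold change of 1.97 ± 0.06. In non-induced cells all 3 p300/CBP libraries lay below all PCAF/GCN5 libraries for NME1, PCNA and IER5 and above them for RPLP2, SCD and CDKN1A.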

How the results depend on the processing

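The 165 genes of the non-induced comparison (24 higher, 141 lower with the p300/CBP compound) became 594 (115 and 479) with no filter on low counts, 422 (109 and 313) with DESeq2, of which 163 were among the 165, and 380 (107 and 273) in the fit of all 4 compound groups. They became 46 (1 and 45) with a replicate block, and 0 (0 and 0) with glmTreat against 1.2-fold. With DESeq2's size factors in edgeR the count was 164. Leaving out 1 library gave 1 to 310 genes in all, 0 to 50 higher and 1 to 274 lower. The cause of these shifts was not tested. Whether same-numbered libraries were paired is not given in the labels. Deviations from the group means correlated at -0.16, -0.05 and -0.21 between same-numbered libraries. With 3 libraries a group these values cannot settle whether there was a pairing. The block is reported only here. The 51 genes of the interaction (11 above and 40 below 0) became 181 (42 and 139) with no filter and 111 (39 and 72) with DESeq2, 45 with the replicate block, and 34 to 58 in all, 4 to 17 above and 30 to 48 below 0, with 1 library left out. No called gene named here changed direction in any alternative; over these genes and alternatives 413 values kept their direction but missed the threshold and 642 kept their side of it. Depth of 19.3 to 26.6 M counts limits genes near 0.113 to 0.156 CPM, and 3 libraries a group limit how small a difference can pass.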
